A study of Homo sapiens with 24 samples.

Results

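Oxidative phosphorylation is carried out by 5 protein complexes of the inner mitochondrial membrane, and the genes of their nuclear-encoded subunits were examined for peaks of the SWI/SNF chromatin remodelling complex. Members were the peaks whose deposited nearest transcription start site (TSS) carried a subunit gene symbol, without pseudogene symbols. The symbols began with NDUFA, NDUFB, NDUFC, NDUFS or NDUFV and a digit, with UQCR, COX4 to COX8 or ATP5, or were SDHA to SDHD. The member peaks were 104 of 51504 BRG1 peaks, 67 of 22157 BRM peaks and 28 of 6489 SNF5 peaks, together 199 of 80150. They carried 69 distinct names. The symbols of 84 subunit genes matched the rule, of which 38 belong to complex I, 4 to complex II, 9 to complex III, 17 to complex IV and 16 to complex V.

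The cells were of the established human line RWPE1, from benign prostate epithelium. They were infected with a lentivirus that carried SCHLAP1, which is a prostate cancer-associated long noncoding RNA, and selected in 2.5 ug/mL blasticidin. BRG1 and BRM, the alternative ATPases of SWI/SNF, and SNF5, one of its core subunits, were each precipitated from MNase-cut chromatin, with 2 labelled replicates and 1 deposited peak list for each protein. These 3 lists are the data used here. The control cells, which carried LACZ, were profiled for histone marks and not for these proteins, so no effect of SCHLAP1 can be read from the lists. The labels do not say whether the infected cells were a single clone. Since the lists give positions and no reads, depth is unknown and no value has a replicate spread. A gene without a peak is one where no peak was called, not one shown to lack the protein.

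Complex I (NADH dehydrogenase) and complex II (succinate dehydrogenase) feed electrons to ubiquinone, complex III (the cytochrome bc1 complex) passes them to cytochrome c, and complex IV (cytochrome c oxidase) passes them to oxygen. Complexes I, III and IV pump protons, and complex V (ATP synthase) uses the returning protons to make ATP. Some core subunits are encoded in the mitochondrial genome, where the 3 lists held 0 peaks. The complexes that hold such subunits also need products of nuclear genes. The factors NRF1, GABP (an ETS family factor), YY1 and the ERR receptors are the best known to bind the promoters of these nuclear genes.

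The promoters of 10 members are shown, from genes that all 3 lists name and from genes that no list names. Each is the RefSeq sequence (GRCh38.p14) of 150 bases before the TSS and 30 from it, in the direction of transcription. NDUFC1, COX5A and ATP5F1E were, for complexes I, IV and V, the members named by BRG1, BRM and SNF5 whose summed width ranks were lowest. NDUFA1, UQCR10, COX6A2 and ATP5F1C were the first by alphabet in complexes I, III, IV and V named by no list, and complexes II and III gave no other member with a window under these rules. NDUFS7, SDHD and ATP5PF were added after the values were seen, because each holds several of the motifs searched. Capitals mark exact matches, on either strand and with overlaps run together. The letters searched were GCGCATGCG for NRF1, AAGATGGCG for YY1 and CCGGAAGT for the ETS family that includes GABP. Those for factors of many housekeeping promoters were GGGCGG for the SP family and CCAAT for the factor NFY. The remaining motifs were TGACGTCA for the CRE, bound by CREB, CACGTG for the E-box of basic helix-loop-helix factors, TATAAA for the TATA box and AAGGTCA for the core site of the ERR receptors. Their places are NDUFC1 chr4:139301181-139301360 on the minus strand, COX5A chr15:74938044-74938223 on the minus strand, ATP5F1E chr20:59032306-59032485 on the minus strand, NDUFA1 chrX:119871682-119871861 on the plus strand, UQCR10 chr22:29767219-29767398 on the plus strand, COX6A2 chr16:31428331-31428510 on the minus strand, ATP5F1C chr10:7788027-7788206 on the plus strand, NDUFS7 chr19:1383757-1383936 on the plus strand, SDHD chr11:112086723-112086902 on the plus strand and ATP5PF chr21:25735025-25735204 on the minus strand. For NDUFC1 and ATP5PF, which have several listed TSS, 1 window each is shown. No peak of any list lay within 1 kb of the TSS of NDUFA1 or UQCR10. The NDUFC1 window lies under its widest BRG1 peak, while the BRM and SNF5 peaks that named NDUFC1 (chr4:139295101-139295914 and chr4:139295648-139295872) lie outside the window, further downstream. Other BRM and SNF5 peaks, which named NAA15, lay within 1 kb of the NDUFC1 TSS shown.
NDUFC1: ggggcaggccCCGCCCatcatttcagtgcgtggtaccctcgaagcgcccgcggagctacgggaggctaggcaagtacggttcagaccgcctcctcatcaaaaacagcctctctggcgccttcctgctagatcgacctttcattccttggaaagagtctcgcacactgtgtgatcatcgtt
COX5A: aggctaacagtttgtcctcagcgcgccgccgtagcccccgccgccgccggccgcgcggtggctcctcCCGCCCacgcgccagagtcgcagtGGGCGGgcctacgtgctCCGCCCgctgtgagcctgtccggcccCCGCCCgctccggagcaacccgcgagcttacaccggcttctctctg
ATP5F1E: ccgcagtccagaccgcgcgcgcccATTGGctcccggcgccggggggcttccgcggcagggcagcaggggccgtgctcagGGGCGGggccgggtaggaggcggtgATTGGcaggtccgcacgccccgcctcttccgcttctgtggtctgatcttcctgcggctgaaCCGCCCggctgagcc
NDUFA1: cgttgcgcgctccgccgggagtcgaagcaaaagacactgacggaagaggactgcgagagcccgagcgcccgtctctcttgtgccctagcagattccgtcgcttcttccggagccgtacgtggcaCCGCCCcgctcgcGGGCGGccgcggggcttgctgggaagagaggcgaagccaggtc
UQCR10: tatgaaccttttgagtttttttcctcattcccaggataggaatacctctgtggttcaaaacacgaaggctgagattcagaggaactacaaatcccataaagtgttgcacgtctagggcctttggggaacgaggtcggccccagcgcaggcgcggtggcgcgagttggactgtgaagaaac
COX6A2: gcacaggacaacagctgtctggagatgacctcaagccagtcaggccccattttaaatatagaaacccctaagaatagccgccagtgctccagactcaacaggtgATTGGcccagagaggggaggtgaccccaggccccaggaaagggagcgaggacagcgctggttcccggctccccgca
ATP5F1C: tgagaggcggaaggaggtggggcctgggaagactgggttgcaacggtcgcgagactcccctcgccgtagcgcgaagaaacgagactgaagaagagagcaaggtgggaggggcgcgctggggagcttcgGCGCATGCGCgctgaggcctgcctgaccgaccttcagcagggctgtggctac
NDUFS7: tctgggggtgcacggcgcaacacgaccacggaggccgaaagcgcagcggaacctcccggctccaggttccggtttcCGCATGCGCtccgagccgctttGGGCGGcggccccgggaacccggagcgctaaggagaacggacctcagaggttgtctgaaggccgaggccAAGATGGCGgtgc
SDHD: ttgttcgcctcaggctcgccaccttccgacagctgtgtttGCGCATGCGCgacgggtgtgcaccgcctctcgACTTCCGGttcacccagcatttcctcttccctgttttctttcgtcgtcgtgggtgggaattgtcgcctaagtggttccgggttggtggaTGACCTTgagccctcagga
ATP5PF: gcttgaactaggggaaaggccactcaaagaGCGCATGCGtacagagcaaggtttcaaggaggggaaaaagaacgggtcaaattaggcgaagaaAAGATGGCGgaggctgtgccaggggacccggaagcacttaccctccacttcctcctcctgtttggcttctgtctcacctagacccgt
COX5A holds 4 GGGCGG matches in this stretch and ATP5F1E holds GGGCGG and CCAAT, while the printed stretch of UQCR10 holds none of the motifs. The longer UQCR10 window, from 250 bases before to 50 after the TSS, holds CCAAT. ATP5F1C, though named by no list, carries the NRF1 letters on both strands just before its TSS. BRG1 and BRM peaks that named KIN lay within 1 kb of that TSS.

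**Figure D1:**
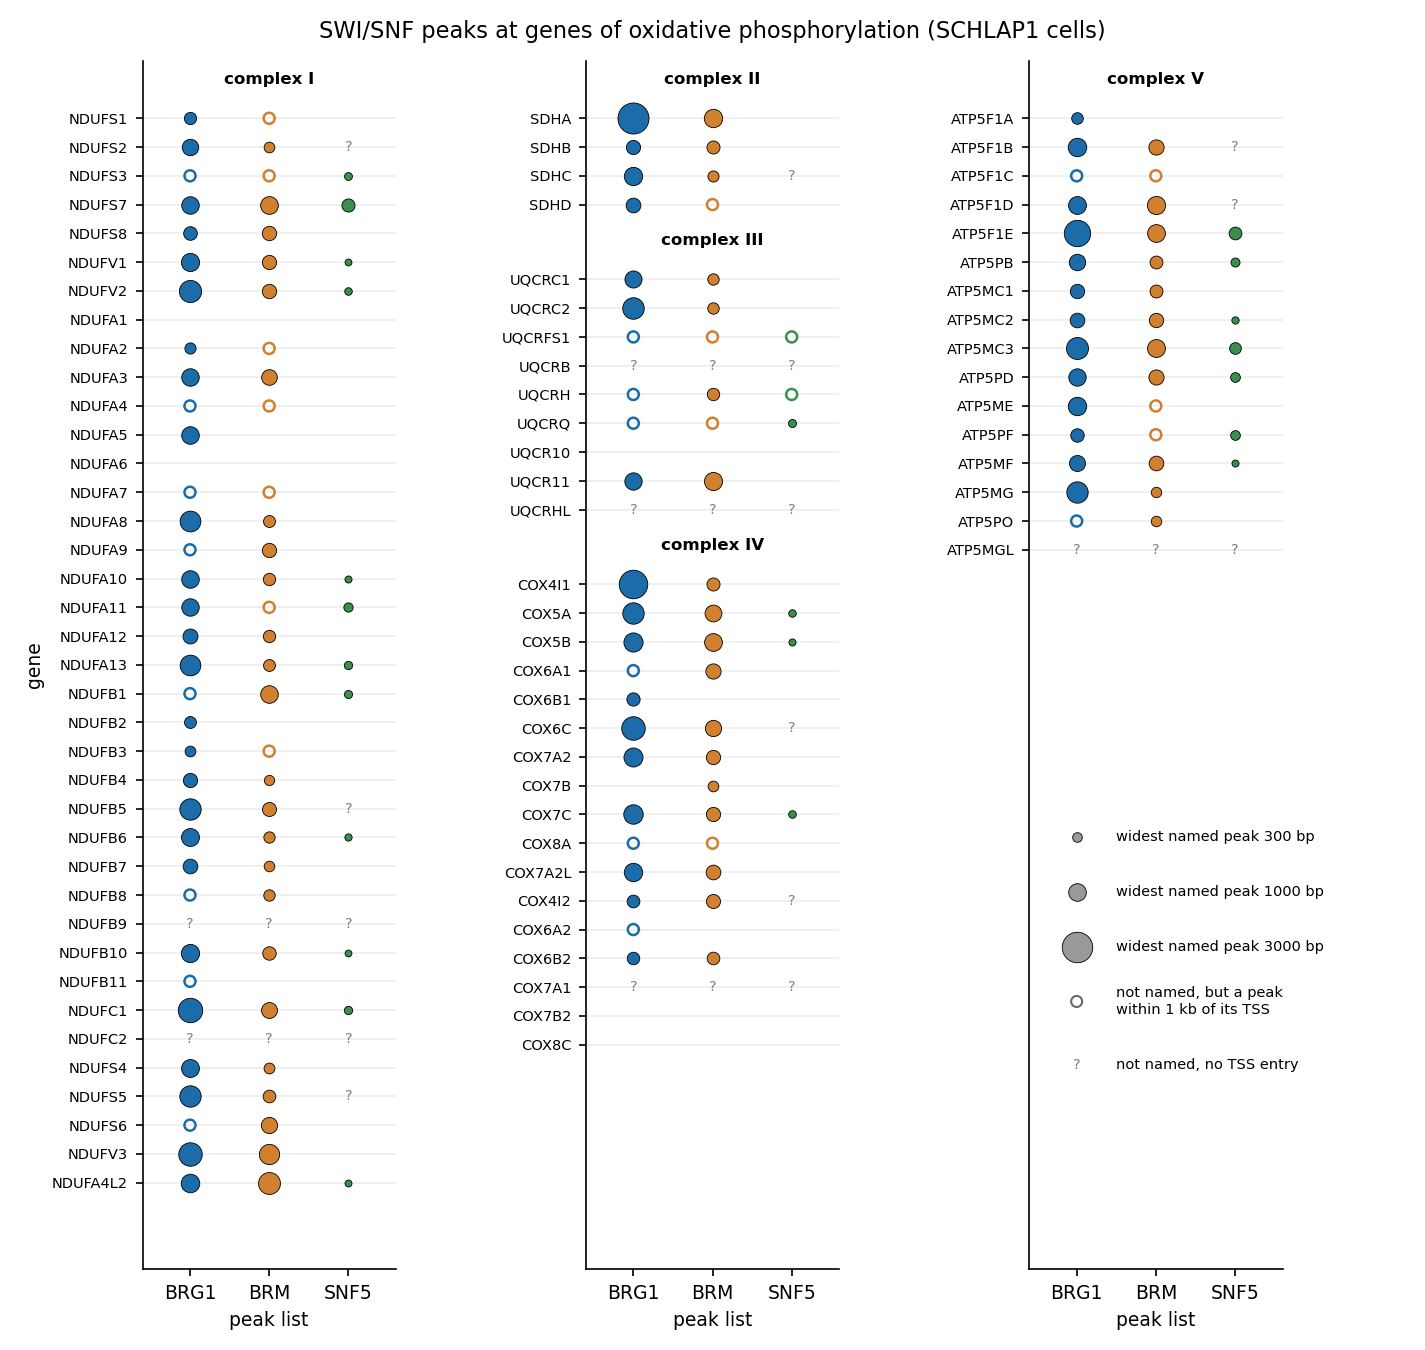
Subunit genes of complexes I to V (rows) against the BRG1, BRM and SNF5 lists (columns), with the area of a filled circle proportional to the widest peak that names the gene (bp). Open circles mark genes that no peak names but whose TSS lies within 1 kb of a peak, and question marks genes without a listed TSS. SNF5 circles are few and small, and many genes without a filled BRG1 circle have an open one.

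BRG1 peaks named 56 of the 84 subunit genes, BRM peaks 53 and SNF5 peaks 23. As shares these were 66.7% for BRG1 (95% exact Clopper-Pearson interval 55.5 to 76.6), 63.1% for BRM (51.9 to 73.4) and 27.4% for SNF5 (18.2 to 38.2). Of 20037 protein-coding genes, 63.5% were named by BRG1, 49.6% by BRM and 19.7% by SNF5. The BRG1 share therefore lay near the share over all genes, and the BRM and SNF5 shares lay above it, with the SNF5 interval still holding the value of all genes. This order turned for BRG1 when the 6489 widest peaks of each list were taken. BRG1 then named 9.52% of subunit genes (4.20 to 17.9), against 20.6% of protein-coding genes. BRM then named 17.9%, with an interval (10.4 to 27.7) that held the 22.6% of protein-coding genes. The intervals treat genes as trials, cover counting error and give no replicate error, since genes are not replicates.

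All 3 lists named 18 subunit genes, and BRG1 with BRM named 27 more. The 18 included NDUFS7, NDUFV1 and NDUFV2, which carry iron-sulfur clusters or bind NADH in complex I, COX5A, COX5B and COX7C of complex IV, and ATP5PB, ATP5PD and ATP5MC2 of the ATP synthase stalks and ring. BRG1 alone named 9 (NDUFS1, NDUFA2, NDUFA5, NDUFB2, NDUFB3, SDHD, COX6B1, ATP5F1A and ATP5ME). Of these, NDUFS1, NDUFA2, NDUFB3, SDHD and ATP5ME had a BRM peak within 1 kb of the TSS that named another gene. BRM alone named 7 (NDUFA9, NDUFB8, NDUFS6, UQCRH, COX6A1, COX7B and ATP5PO), each with 1 promoter peak. These BRM peaks measured 659 bp at NDUFA9, 419 bp at NDUFB8, 851 bp at NDUFS6, 498 bp at UQCRH, 750 bp at COX6A1, 367 bp at COX7B and 355 bp at ATP5PO. All but the one at COX7B overlapped a BRG1 peak that named another gene. BRG1 with SNF5 named NDUFA11 and ATP5PF, BRM with SNF5 named NDUFB1 (a BRM peak of 1000 bp), and SNF5 alone named NDUFS3 and UQCRQ. The SNF5 peaks at NDUFS3 and UQCRQ overlapped BRG1 and BRM peaks that named other genes. No list named 18 genes: NDUFA1, NDUFA4, NDUFA6, NDUFA7, NDUFB9, NDUFB11, NDUFC2, UQCRFS1, UQCRB, UQCR10, UQCRHL, COX8A, COX6A2, COX7A1, COX7B2, COX8C, ATP5F1C and ATP5MGL. The end of NDUFC2 at chr11:78079862 lay under peaks of all 3 lists that named the read-through gene NDUFC2-KCTD14. For these combinations by name no share over protein-coding genes is at hand, so the counts alone do not set subunit genes apart.

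More subunit genes had a peak at their start than the names of peaks show. A RefSeq TSS was at hand for 68 of the 84 genes, and a BRG1 peak, whatever gene it named, lay within 1 kb of it for 61 (89.7%, interval 79.9 to 95.8). A BRM peak did so for 56 (82.4%, 71.2 to 90.5) and an SNF5 peak for 23 (33.8%, 22.8 to 46.3). Over 15843 protein-coding genes with a listed TSS these shares were 65.1% for BRG1, 54.3% for BRM and 22.1% for SNF5, each below the interval of the subunit genes. All 3 lists had a peak within 1 kb for 23 of the 68 subunit genes, against 21.8% of the protein-coding genes. BRG1 alone had one for 6, against 11.4%, BRM alone for 1, against 0.839%, and no list for 6, against 34.0%. BRG1 with BRM had one for 32, a larger share than over protein-coding genes. No interval was computed for these combinations. An SNF5 peak covered the TSS itself for 8.82% of subunit genes, against 8.97% of protein-coding genes. The genes compared include silent ones and were not matched on expression.

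Of the 61 genes with a BRG1 peak near the TSS, 16 were not named by any BRG1 peak, because the peak named a neighbour. The peak at NDUFS3, a core subunit of complex I, named KBTBD4. That at NDUFA7 named RPS28, that at NDUFB1 named CPSF2, that at NDUFS6 named MRPL36, that at UQCRH named LRRC41 and that at ATP5F1C, the gamma subunit of ATP synthase, named KIN. For BRM the same held for 14 of 56 genes, among them SDHD, whose peak named TIMM8B, NDUFS1 (EEF1B2) and NDUFA2 (IK). For SNF5 it held for 2 of 23, UQCRFS1, the Rieske iron-sulfur subunit, and UQCRH.

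Many subunit genes share a promoter region with a gene on the other strand. A TSS of another gene lay on the opposite strand at most 1 kb upstream for 27 of 68 subunit genes (39.7%, 28 to 52.3), against 22.1% of protein-coding genes. By complex this held for 15 of 33 genes in complex I, 1 of 3 in complex II, 4 of 7 in complex III, 1 of 14 in complex IV and 6 of 11 in complex V. Among genes with such a partner a BRG1 peak lay within 1 kb for 24 of 27 subunit genes (88.9%), close to the 88.1% of protein-coding genes with a partner. Among genes without one it did so for 37 of 41 subunit genes (90.2%, 76.9 to 97.3), against 58.6% of protein-coding genes. For SNF5 the shares were 40.7% of subunit genes with a partner, against 37.3% of protein-coding genes with one, and 29.3% of subunit genes without (16.1 to 45.5), against 17.8% of protein-coding genes without.

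**Figure D2:**
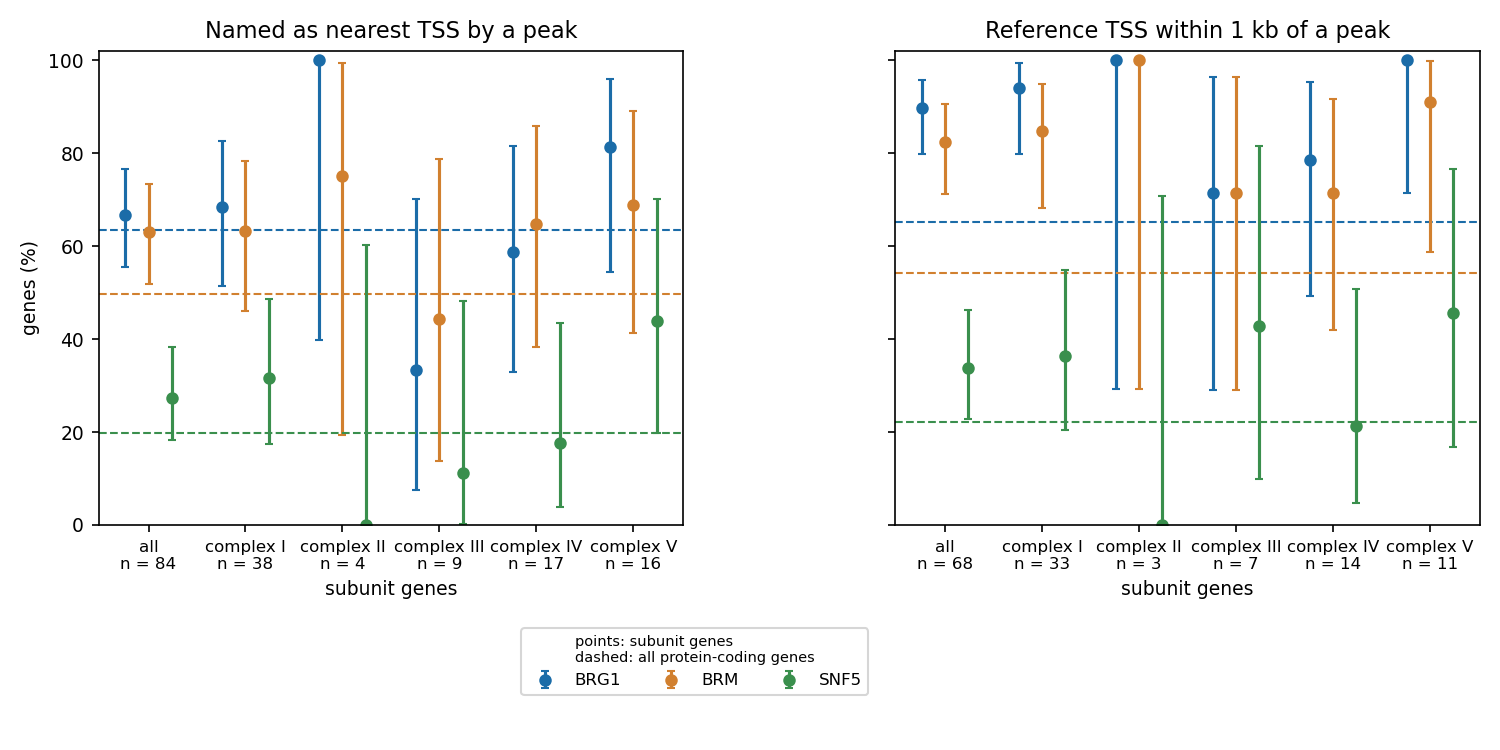
Percent of subunit genes, in all and by complex, that a BRG1, BRM or SNF5 peak names (left) or whose TSS lies within 1 kb of a peak (right). Points are shares with 95% exact intervals and n genes below, and dashed lines are the shares over all protein-coding genes. On the right the points of all subunit genes (89.7, 82.4 and 33.8%) stand above their lines.

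The complexes differed in counts, within wide intervals. By name, BRG1 marked 26 of 38 genes of complex I, 4 of 4 of complex II, 3 of 9 of complex III, 10 of 17 of complex IV and 13 of 16 of complex V. BRM marked 24, 3, 4, 11 and 11 of them in the same order, and SNF5 marked 12, 0, 1, 3 and 7. Over protein-coding genes the shares by name were 63.5% for BRG1, 49.6% for BRM and 19.7% for SNF5. The interval of each complex held these, apart from SNF5 in complex V (43.8%, 19.8 to 70.1), whose lower end lay only just above. That count leaves out the 3 ATP synthase genes listed under older symbols, which SNF5 did not name. The complex V share with them was not computed, so no SNF5 excess is read from it. By the TSS measure complex III had a higher BRG1 share, since 5 of 7 genes had a BRG1 peak, 5 a BRM peak and 3 an SNF5 peak within 1 kb. On that measure BRG1 lay near 31 of 33 genes of complex I, 3 of 3 of complex II, 11 of 14 of complex IV and 11 of 11 of complex V. SNF5 lay near 12 of 33, 0 of 3, 3 of 14 and 5 of 11 of these. The TSS shares over protein-coding genes were 65.1% for BRG1, 54.3% for BRM and 22.1% for SNF5. For BRG1 and BRM the intervals of complexes I and V lay above them, and the remaining intervals held them. With 3 to 33 genes a complex the intervals overlapped, and no difference between complexes was tested.

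In complex I, the core subunits hold the redox centres, and 6 of the 7 were named by BRG1, 5 by BRM and 4 by SNF5. The shares over protein-coding genes were 63.5, 49.6 and 19.7%, and the intervals of the core subunits, which for SNF5 ran over 18.4 to 90.1%, held all 3. All 6 with a listed TSS had a BRG1 and a BRM peak within 1 kb, and 4 had an SNF5 peak, beside 65.1, 54.3 and 22.1% of protein-coding genes for the 3 lists. NDUFS7, which carries the last iron-sulfur cluster before ubiquinone, had a BRG1 peak of 990 bp, a BRM peak of 1012 bp and an SNF5 peak of 555 bp, the widest SNF5 peak of any member. The SNF5 peak (chr19:1383344-1383898) ended just before the TSS at 1383907, in the stretch printed above. NDUFV2 had 9 BRG1 peaks, the most of any member, with the widest at 1583 bp, beside 2 BRM peaks (widest 668 bp) and 1 SNF5 peak of 185 bp. Of the 9, 4 were annotated as promoter.

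Among accessory subunits of complex I, which surround the core, NDUFC1 had the widest BRG1 peak at 1922 bp, with a BRM peak of 814 bp and an SNF5 peak of 225 bp. The BRM and SNF5 peaks that named it lay on another of its 3 BRG1 peaks, of 1124 bp. NDUFV3 had a BRG1 peak of 1778 bp and a BRM peak of 1321 bp and no SNF5 peak. NDUFA13 had BRG1 and BRM peaks of 1376 and 455 bp, and the wider of its 2 SNF5 peaks measured 224 bp. NDUFB10 had a widest BRG1 peak of 1076 bp and a single BRM peak of 585 bp, and both of its SNF5 peaks measured 151 bp. The other complex I genes with an SNF5 peak (NDUFS3, NDUFV1, NDUFA10, NDUFA11, NDUFB1, NDUFB6 and NDUFA4L2) had 1 each, from 153 to 279 bp wide. NDUFA1 and NDUFA6 had no peak within 1 kb of the TSS in any list.

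In complex II, SDHA, the flavoprotein that oxidises succinate, had a BRG1 peak of 3110 bp, the widest of any member (chr5:217868-220977, hg38). The annotation places it in an intron at 1049 bp, although it covers the TSS at 218320, since distances run from the middle of a peak. Its BRM peak was 1091 bp wide. SDHC, a membrane anchor, had a BRG1 peak of 1089 bp and a BRM peak of 398 bp, and SDHB, the iron-sulfur subunit, a widest BRG1 peak of 651 bp and a BRM peak of 551 bp. SDHD, the other anchor, had 2 BRG1 peaks. The one at its TSS (112086873) was 484 bp wide (chr11:112086915-112087398), and the wider, of 701 bp (chr11:112166409-112167109), lay beyond the end of the RefSeq gene at 112095794. No gene of complex II was named by SNF5.

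In complex III, UQCRC2, a core structural subunit, had a BRG1 peak of 1495 bp and a BRM peak of 423 bp, and UQCR11 had a widest BRG1 peak of 968 bp and a widest BRM peak of 1057 bp. UQCRC1 was named by a BRG1 peak of 941 bp and a BRM peak of 419 bp, both annotated as distal. These met or neared the far end of the gene (chr3:48599002-48609646, minus strand), and no peak lay within 1 kb of its RefSeq TSS. UQCRQ was the only member of complex III that SNF5 named, with a peak of 207 bp.

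In complex IV, COX4I1, the regulatory subunit IV of most tissues, had a BRG1 peak of 2628 bp and a BRM peak of 550 bp. COX6C had a BRG1 peak of 1787 bp and a BRM peak of 857 bp. COX5A had a BRG1 peak of 1479 bp, a BRM peak of 912 bp and an SNF5 peak of 183 bp. COX5B and COX7C had SNF5 peaks of 163 and 187 bp. COX7A2L, which helps complexes III and IV to associate, had 5 BRG1 and 3 BRM peaks.

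In complex V, the F1 head makes ATP and the FO part with the stalks conducts protons and holds the head. ATP5F1E, the epsilon subunit of the central stalk, had a BRG1 peak of 2247 bp and a BRM peak of 1022 bp. Of its 2 SNF5 peaks the wider measured 524 bp. ATP5MC3, one of 3 genes for the same mature c subunit of the ring, had a BRG1 peak of 1558 bp and a BRM peak of 1032 bp. Its SNF5 peaks numbered 2, and the wider measured 442 bp. ATP5MG had a BRG1 peak of 1472 bp and a BRM peak of 351 bp. BRG1 named 4 of 5 F1 genes and 9 of 10 FO and stalk genes. BRM named 3 of the F1 genes and 8 of the FO and stalk genes, and SNF5 named 1 and 6 of them. Over protein-coding genes these shares were 63.5% for BRG1, 49.6% for BRM and 19.7% for SNF5. The F1 counts lay near them, and for FO and stalk genes the SNF5 share by name (60.0%, 26.2 to 87.8) had an interval above the value of all genes. By the TSS measure this did not hold. An SNF5 peak lay within 1 kb of 4 of 8 FO and stalk genes, and the interval (15.7 to 84.3%) held the 22.1% of protein-coding genes. ATP5PB, ATP5MC2, ATP5PD, ATP5PF and ATP5MF each had 1 SNF5 peak, from 161 to 306 bp wide.

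ATP5PF shares its promoter region with GABPA, the gene of the DNA-binding subunit of GABP. The BRG1 and BRM peaks within 1 kb of the TSS of ATP5PF named GABPA, while the SNF5 peak there, of 305 bp, named ATP5PF. The BRG1 peak that named ATP5PF was a separate one of 584 bp.

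Tissue-restricted paralogs, such as the muscle forms COX6A2 and COX7A1, gave counts of 3 of 9 named by BRG1, 3 by BRM and 1 by SNF5, and the difference from the other subunit genes was not tested. Their intervals (7.49 to 70.1% for BRG1 and for BRM, 0.281 to 48.2% for SNF5) held the shares over protein-coding genes, 63.5, 49.6 and 19.7%. NDUFA4L2, a gene induced by low oxygen, held 4 BRG1, 3 BRM and 1 SNF5 peak. Its widest BRM peak, 1546 bp and annotated as distal, was the widest BRM peak of any member. COX6B2, a testis form, had promoter peaks of BRG1 (505 bp) and BRM (516 bp). COX4I2 was named by distal peaks that lay 23982 bp (BRG1) and 23858 bp (BRM) from its TSS. COX7B2, COX8C, COX7A1, UQCRHL and ATP5MGL were named by no list, and COX6A2 had a BRG1 peak within 1 kb that named another gene.

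Few peaks lay at members on some chromosome regions. On chromosomes 18, 22 and X and chromosome 3 below 80 Mb, regions chosen after their low share of named genes was seen, BRG1 lay within 1 kb of 3 of 8 subunit TSS, BRM of 2 and SNF5 of 1. Elsewhere BRG1 lay near 58 of 60 (96.7%, 88.5 to 99.6), BRM near 54 (90.0%) and SNF5 near 22 (36.7%). Protein-coding genes gave the same order, with 36.5, 14.4 and 1.31% of TSS within 1 kb of BRG1, BRM and SNF5 in those regions and 68.5, 59.0 and 24.6% elsewhere. Of the 7 subunit genes without a BRG1 peak near the TSS, 5 lay in those regions (NDUFA1, NDUFA6, UQCRC1, UQCR10 and COX7B), and the other 2 were the tissue-restricted COX7B2 and COX8C. NDUFV2 on chromosome 18 was an exception, with peaks in all 3 lists. Copy number, mappability and the authors' filter in these regions were not tested.

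Most peaks named for subunit genes lay at promoters. Without the peaks named ATP5S, NDUFC2-KCTD14 and NDUFV2-AS1, which match the rule by symbol and are not subunit genes, 96 BRG1, 64 BRM and 27 SNF5 peaks remained. By the deposited annotation, promoters held 71.9% of these BRG1 peaks (61.8 to 80.6), against 37.3% of all BRG1 peaks. They held 87.5% of the BRM peaks (76.8 to 94.4), against 62.8% of all BRM peaks, and 26 of the 27 SNF5 peaks, against 81.3% of all SNF5 peaks. Subunit promoter peaks had a median width of 972 bp for BRG1, against 876 bp for all promoter peaks. For BRM the medians were 550 bp at subunit promoters, against 638 bp, and for SNF5 186 bp, against 218 bp. Width depends on depth and peak calling and is not an amount of protein.

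Nearly every BRM or SNF5 peak at these genes lay on a BRG1 peak, as did nearly every such peak of the whole lists. With at least 1 bp of overlap, BRG1 met 55 of 56 BRM promoter peaks of subunit genes, against 94.8% of all BRM promoter peaks. It met 26 of 26 SNF5 promoter peaks, against 98.4% of all, and BRM met 25 of these 26, against 95% of all. In the other direction, 49 of 69 BRG1 promoter peaks of subunit genes met BRM (71.0%, 58.8 to 81.3), against 61.6% of all BRG1 promoter peaks. SNF5 met 19 of the 69 (27.5%, 17.5 to 39.6), against 21.2%. Each value over all promoter peaks lay within the interval of the subunit peaks. The BRG1 promoter peaks that met SNF5 had a median width of 1076 bp (n = 19 peaks), against 712 bp for the 50 that did not. Over all BRG1 promoter peaks these medians were 1588 and 728 bp.

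**Figure D3:**
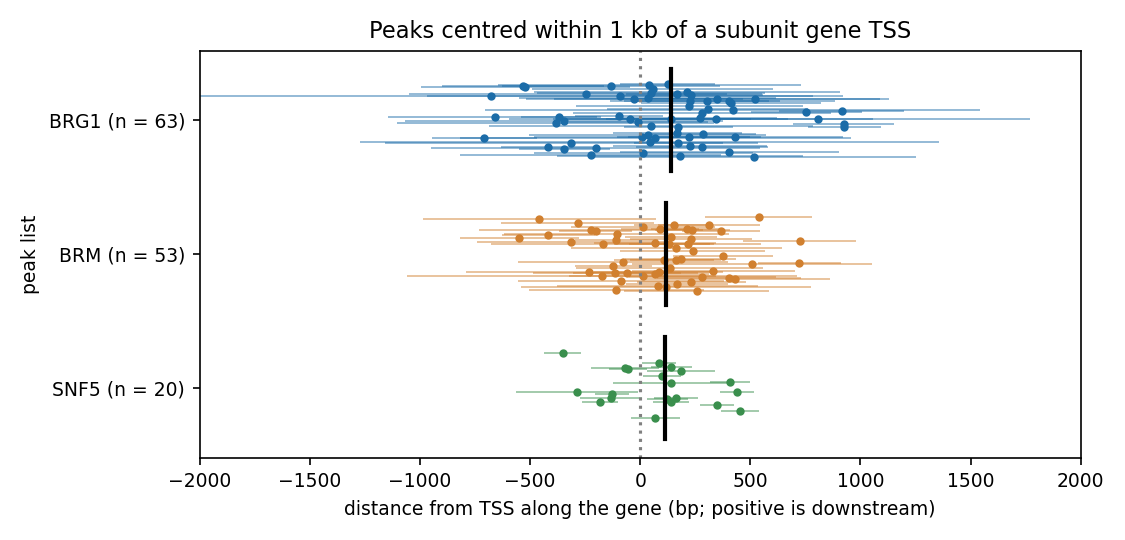
Peaks centred within 1 kb of a subunit gene TSS, by list, along the gene (bp from the TSS, positive is downstream). Dots are peak centres, thin lines peak widths and black bars medians, which lie 139 (BRG1), 117 (BRM) and 110 bp (SNF5) downstream of the TSS.

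Most peak centres lay just downstream of the TSS. The median offset was 139 bp for 63 BRG1 peaks, 117 bp for 53 BRM peaks and 110 bp for 20 SNF5 peaks centred within 1 kb of a subunit TSS. Over protein-coding genes the medians were 135, 106 and 65.5 bp. Of the subunit peaks, 68.3% of BRG1, 66.0% of BRM and 65.0% of SNF5 were centred downstream, against 65.6, 65.4 and 61.9% over protein-coding genes, which lie within the intervals of the subunit peaks.

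**Figure D4:**
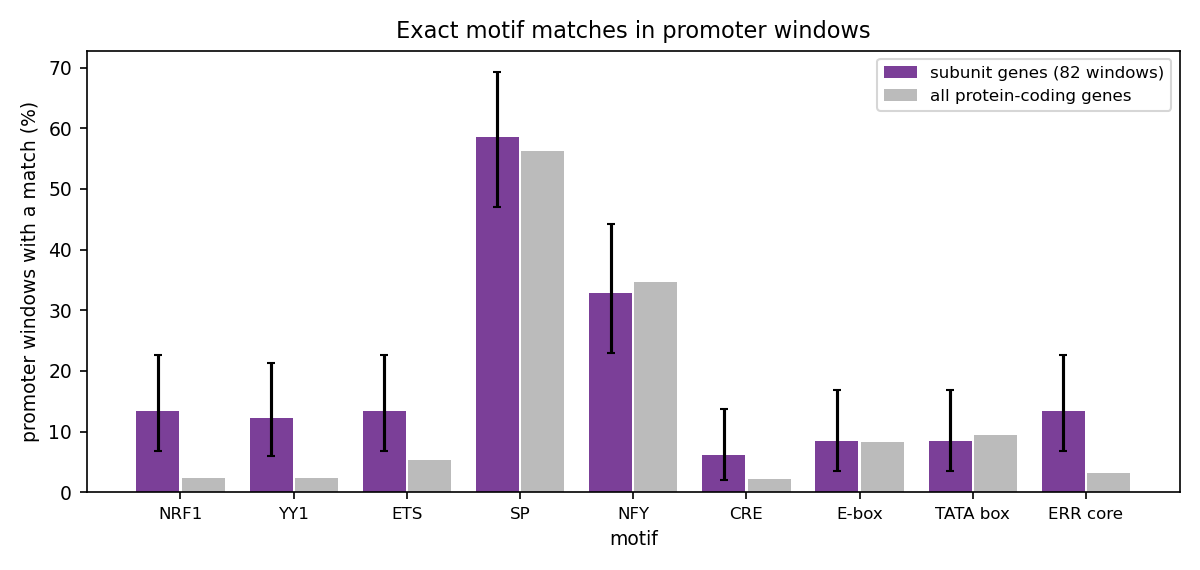
Percent of promoter windows (250 bases before to 50 after the TSS) with an exact match to each motif on either strand, for subunit genes (purple, with 95% exact intervals) and all protein-coding genes (grey). NRF1, YY1, ETS and ERR bars of subunit genes stand above the grey bars, and the grey values of the SP, NFY, E-box and TATA bars lie within the intervals of the subunit bars.

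The letters of the known mitochondrial regulators stood in a larger share of subunit promoters than of all promoters, above the counting error of the shares. In windows from 250 bases before to 50 after the TSS, GCGCATGCG (NRF1) stood in 11 of 82 subunit windows (13.4%, 6.89 to 22.7), against 2.36% of 22199 windows of protein-coding genes. AAGATGGCG (YY1) stood in 12.2% (6.01 to 21.3), against 2.41%, CCGGAAGT (ETS) in 13.4%, against 5.34%, and AAGGTCA (ERR core) in 13.4%, against 3.22%. GGGCGG (SP) was found in 58.5% of subunit windows, against 56.3%, CCAAT (NFY) in 32.9%, against 34.7%, CACGTG in 8.54%, against 8.34%, and TATAAA in 8.54%, against 9.47%. TGACGTCA (CRE) stood in 6.10% of subunit windows (2.01 to 13.7), against 2.26%. Among protein-coding windows with a BRG1 peak within 1 kb, NRF1 letters stood in 3.31%, YY1 in 3.48%, ETS in 7.73% and ERR in 2.39%. The subunit intervals lay above these values for NRF1, YY1 and ERR, while the ETS interval (6.89 to 22.7) held the value of promoters near BRG1. Windows of 1 gene can overlap, and a match is a description of letters, not of binding.

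Counted by gene, at least 1 of the NRF1, YY1, ETS and ERR matches occurred in 29 of 68 subunit genes (42.6%, 30.7 to 55.2), against 16.1% of protein-coding genes. BRG1 lay within 1 kb of a matching window in 27 of the 29 genes, and SNF5 in 8. These counts lie near the 89.7% (BRG1) and 33.8% (SNF5) of all subunit genes with a listed TSS. Of 2556 protein-coding genes with a matching window, 77.9% had BRG1 and 30.2% had SNF5 near it. The NRF1 letters occurred in ATP5F1C, ATP5MC2, ATP5ME, ATP5PF, COX6A1, NDUFA5, NDUFA8, NDUFB4, NDUFS6, NDUFS7 and SDHD, and BRG1 lay near all 11, beside 87.2% of the 492 protein-coding genes with these letters. They were found in 5 of 41 windows of complex I, 1 of 3 of complex II, 0 of 7 of complex III, 1 of 16 of complex IV and 4 of 15 of complex V. The ETS letters were found in 3 of the 7 complex III windows (UQCR11, UQCRH and UQCRQ). The median GC content of subunit windows was 59.2%, against 62.3% over protein-coding genes and 66.0% among protein-coding windows near BRG1.

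Other genes that mitochondrial respiration needs were also named, beside shares over protein-coding genes of 63.5% for BRG1, 49.6% for BRM and 19.7% for SNF5. Of 42 assembly factors, which build the complexes, BRG1 named 73.8% (58.0 to 86.1), BRM 69.0% (52.9 to 82.4) and SNF5 23.8% (12.1 to 39.5). Of the 35 with a listed TSS, 34 had a BRG1, 32 a BRM and 15 an SNF5 peak within 1 kb (SNF5 42.9%, 26.3 to 60.6). By this measure the shares over protein-coding genes were 65.1, 54.3 and 22.1%. UQCC1, an assembly factor of complex III, had 8 BRG1 peaks with the widest at 4252 bp, 5 BRM and 2 SNF5 peaks. Of 17 genes of the citric acid cycle and pyruvate dehydrogenase, BRG1 named 94.1% (71.3 to 99.9), beside 66.7% of subunit genes (55.5 to 76.6), BRM 64.7% and SNF5 41.2% (18.4 to 67.1). Of 7 other carriers and subunits, BRG1 named 7, BRM 6 and SNF5 2, among them CYCS, the electron carrier cytochrome c, with a BRG1 peak of 1294 bp, a BRM peak of 942 bp and an SNF5 peak of 346 bp. The 7 include CYC1 of complex III and NDUFAB1 of complex I, subunits that the counts by complex leave out. CYC1 had 3 BRG1 peaks (widest 1570 bp), a BRM peak of 2897 bp and no SNF5 peak. NDUFAB1 had a BRG1 peak of 1014 bp and no BRM or SNF5 peak. Of 12 nuclear regulators, BRG1 named 9, BRM 9 and SNF5 5 (41.7%, 15.2 to 72.3), among them ESRRA with 4 BRG1, 4 BRM and 1 SNF5 peak.

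Genes of other large complexes, which are also widely expressed, gave BRG1 shares that were higher by name, with intervals that met that of the subunit genes, and closer by TSS. No difference between these families was tested. By name, BRG1 marked 84.4% of mitochondrial ribosomal protein genes (74.4 to 91.7), 84.7% of cytosolic ribosomal protein genes (75.3 to 91.6) and 84.6% of proteasome genes (69.5 to 94.1), beside 66.7% of subunit genes (55.5 to 76.6). BRM marked 71.4, 82.4 and 79.5% of them, beside 63.1% of subunit genes (51.9 to 73.4). By the TSS measure, BRG1 lay within 1 kb of 97.1% of mitochondrial ribosomal protein genes, 86.8% of cytosolic ribosomal protein genes and 91.2% of proteasome genes, and BRM of 87.0, 82.4 and 85.3% of them. These stand beside 89.7% for BRG1 and 82.4% for BRM at subunit genes. SNF5 lay near 29.0% of mitochondrial ribosomal, 54.4% of cytosolic ribosomal (41.9 to 66.5) and 29.4% of proteasome genes, beside 33.8% of subunit genes (22.8 to 46.3).

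Of the markers used to check the labelled cell type, BRG1 named 4 of 5 basal epithelial genes (KRT5, KRT14, TP63 and ITGB4), BRM 4 (KRT5, KRT14, ITGA6 and ITGB4) and SNF5 1 (KRT5). Of 8 genes of other cell types BRG1 named 5, BRM 1 and SNF5 1. Over protein-coding genes the shares were 63.5% for BRG1, 49.6% for BRM and 19.7% for SNF5, and sets of 5 and 8 genes are too small to set apart from the BRG1 share. A peak near a gene is not a measure of its expression.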

How the data were processed

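SWI/SNF was profiled by the authors with chromatin immunoprecipitation and sequencing of RWPE1 cells fixed in 0.3% formaldehyde for 30 min, per the labels' protocols. The submitters' processing notes name hg38, Bowtie2, SAMtools, MACS2 and deepTools 2.5.2 with no role for each. For thresholds, the filter and pooling of replicates, nothing is stated in the sources used here. Each of the deposited lists gives position, width in bp, place, nearest TSS and distance to it, per the file headers, with no score or read count. Of the 24 samples in 12 groups, the inputs and histone marks were not analysed here.

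For the shares over protein-coding genes and the other gene lists, names were matched to RefSeq symbols and synonyms on the same chromosome. This matched 81.4% (BRG1), 86.9% (BRM) and 90.5% (SNF5) of peaks. Subunit genes were matched by a hand-made list of their current and older symbols on the same chromosome, so the procedures differ. A gene counted as named when any peak gave it as nearest TSS. TSS came from RefSeq promoter windows of GRCh38.p14, which 68 of 84 subunit genes had. The lists use older symbols of ATP synthase genes. Peaks named USMG5, C14orf2 and ATPIF1 belong to 3 more ATP synthase genes that the rule leaves out, while peaks named ATP5S, NDUFC2-KCTD14 and NDUFV2-AS1 were kept among the 199 and not counted as subunit genes. The rule also leaves out the subunit genes CYC1 (complex III) and NDUFAB1 (complex I), which are given with the other carriers and subunits. Pseudogene names left out 70 BRG1, 14 BRM and 5 SNF5 peaks. NDUFA4 and NDUFA4L2 were kept with complex I by symbol, although NDUFA4 is also known as a subunit of complex IV.

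Shares have exact Clopper-Pearson intervals at 95% confidence, which cover counting error only, and no p-value was computed. Named with their peak widths or counts were the 3 members of each complex with the widest BRG1 peak, members with an SNF5 peak, members outside BRG1 or named by none, and tissue-restricted paralogs. A further list of marker genes is not reported here. Members and lists were chosen with earlier results of these data known. The routines were checked on simulated data. The tools were scipy 1.17.1, pandas 2.3.3, numpy 2.4.6 and matplotlib 3.10.9 under Python 3.11.15.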

Additional observations from a re-analysis of the deposited data

How the results depend on the processing

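No paired analysis was possible because each protein has 1 list that covers both labelled replicates. Of 138 shares under an alternative, 95 stayed within the 95% interval of the value reported and 43 did not. Promoter peaks only, leaving out tissue-restricted paralogs, counting NDUFA4 with complex IV, adding the 3 genes under older symbols, an overlap of 50% and a limit of 3 kb each moved none outside. The alternatives on gene spans and on chromosome regions and the 3 added genes were chosen after seeing the data.

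With the wider 50% of each list, 51.2% of subunit genes were named by BRG1, 38.1% by BRM and 11.9% by SNF5, against 49.7, 34.3 and 11.4% of protein-coding genes. With 6489 peaks from each list, BRG1 named 9.52% of subunit genes (4.20 to 17.9) and BRM 17.9% (10.4 to 27.7), against 20.6 and 22.6% of protein-coding genes. The BRM interval held its value of protein-coding genes. The widest BRG1 peaks thus named a smaller share of subunit genes than of protein-coding genes, the opposite order to the full list. By complex, with equal numbers BRG1 named 7.89% of complex I, 25% of II, 0% of III, 11.8% of IV and 12.5% of V, and BRM 18.4% of I, 11.1% of III, 17.6% of IV and 18.8% of V. The wider 50% gave BRM 34.2% of I and 11.1% of III, and SNF5 13.2% of I, 0% of III and 0% of IV.

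By a peak within 1 kb of the TSS the shares were 89.7% for BRG1 and 82.4% for BRM, and by complex 93.9% (I), 71.4% (III) and 100% (V) for BRG1 and 84.8% (I), 100% (II) and 90.9% (V) for BRM. By a peak within 1 kb of the gene span they were 89.3% for BRG1 and 82.1% for BRM. A peak covering the TSS itself was found for 66.2% of subunit genes with BRM and 8.82% with SNF5, against 41.8 and 8.97% of protein-coding genes, so the SNF5 excess was not present there. Without chromosomes 18, 22, X and 3 below 80 Mb, BRG1 lay near 96.7% of TSS. Within 1 kb, 75% of BRG1 peaks met BRM, and 100% of SNF5 peaks met BRG1 and 100% BRM. A reference TSS lay within 1 kb of 53.8% of BRG1 and 71.6% of BRM peaks, lower than the promoter shares, and 16 subunit genes have no listed TSS. In the 100 bases before the TSS, motif shares were lower by construction, at 6.10% for NRF1 (1.33% of protein-coding windows), 1.22% for YY1 (0.275%), 37.8% for SP (40.5%), 17.1% for NFY (19.6%), 0% for the E-box (4.05%) and 3.66% for ERR (0.991%). There YY1 rested on 1 window and ERR on 3, and both shares stayed above the protein-coding values. Their intervals (YY1 0.0309 to 6.61, ERR 0.761 to 10.3) hold those values, so an excess there cannot be told from counting error. Depth is unknown, so a missing peak sets no limit on the protein.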

Other observations

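The 3 ATP synthase genes that the lists carry under older symbols were named by BRG1 and BRM and not by SNF5. The gene listed as C14orf2 (ATP5MJ) had 2 BRG1 peaks, the widest of 1198 bp, and a BRM peak of 379 bp. The one listed as ATPIF1 (ATP5IF1, the inhibitor of ATP synthase) had a BRG1 peak of 1220 bp and a BRM peak of 404 bp. The one listed as USMG5 (ATP5MK) had peaks of 331 and 636 bp. NDUFC2 itself was named by no list, while the read-through gene NDUFC2-KCTD14 had 2 BRG1 peaks, 1 BRM peak of 809 bp and 1 SNF5 peak of 462 bp. NDUFC2 has no listed TSS. The BRM and SNF5 peaks and the wider BRG1 peak (978 bp) each cover the end of its RefSeq gene at chr11:78079862. NDUFC2 is therefore not a gene without peaks.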
